A study of Mus musculus with 12 samples.

Results

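Transcripts of myelin and of astrocytes were followed in droplets that had been loaded with sorted brain myeloid cells. The 8 genes, chosen by symbol from the 31053 genes listed in the count matrices, were Mbp, Mobp and Mal for the myelin-forming oligodendrocytes and Slc1a2, Slc1a3, Aldoc, Clu and Gja1 for astrocytes. Each symbol matched 1 gene. The study asked how the way a brain is taken apart changes what is measured in its cells, and 12 male C57BL/6J mice, an inbred wild-type laboratory strain, were used at postnatal day 90. Whole brains were broken up either on ice by Dounce homogenization, in which tissue is forced past a glass pestle (DNC), or by warm enzymatic digestion (ENZ), and each was done with (INHIB) or without (NONE) a mixture of actinomycin D and triptolide, which block transcription, and anisomycin, which blocks translation. The 4 preparations are called DNC-NONE, DNC-INHIB, ENZ-NONE or ENZ-INHIB here, with 3 mice and 1 library per mouse in each. All preparations passed through Percoll and were sorted as live CD45+/CD11b+ cells with a deliberately wide gate, so any myeloid cell of the brain, its borders or its blood could enter. Libraries were made with a 10X Genomics 3′ kit, which tags every molecule with the barcode of its droplet and with a short random sequence, so that original molecules (UMIs) can be counted instead of copies.

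Myelin is the stack of oligodendrocyte membrane that wraps axons, and it is compacted on its inner side by myelin basic protein, the product of Mbp. Mbp messenger RNA is carried out into the oligodendrocyte processes and translated beside the membrane, so it is known to be abundant in broken myelin as well as in cell bodies. Mobp and Mal encode other myelin proteins. The Mbp gene also has longer golli transcripts, which are made in cells of the immune system. Astrocytes take up glutamate from synapses with the transporters encoded by Slc1a2 (GLT-1) and Slc1a3 (GLAST). Aldoc encodes the brain form of the glycolytic enzyme aldolase, Clu the secreted chaperone clusterin, and Gja1 connexin 43, the channel protein of astrocyte gap junctions. None of the 8 is a marker by which microglia, the resident macrophages of the brain, are recognised.

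The positions of the 8 genes, all protein-coding, are from GENCODE M21 on GRCm38, the mm10 assembly the counts were made on. Mbp lies on chromosome 18 at 82475146 to 82585637 (plus strand), Mobp on chromosome 9 at 120149707 to 120181484 (plus) and Mal on chromosome 2 at 127633226 to 127656695 (minus). Slc1a2 lies on chromosome 2 at 102658659 to 102790784 (plus) and Slc1a3 on chromosome 15 at 8634124 to 8710764 (minus). Aldoc is on chromosome 11 at 78322968 to 78327781 (plus), Clu on chromosome 14 at 65968483 to 65981547 (plus) and Gja1 on chromosome 10 at 56377330 to 56402513 (plus). Only Slc1a2 overlapped another gene of the matrices, Gm13872, on the other strand.

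The matrices held 28426 barcodes and 33742845 UMIs, between 2118143 and 3654465 UMIs per library, with a median of 1160 UMIs per barcode and none under 207. The barcodes were overwhelmingly of microglial type, since P2ry12, a purine receptor of microglia, was found in 94.2% to 97.7% of the barcodes of a library and Tmem119 in 90.6% to 95.7%. Of the barcode sequences, 503 occurred in 2 or more libraries. DNC-NONE replicate 2 stood apart: neuronal markers (12 genes summed) reached 64.2 CPM (UMIs per 1000000 UMIs) there against 4.57 to 12.2 in the other 11 libraries, vessel markers (8 genes) 19.9 against 0.309 to 1.69, and a list of 22 other astrocyte genes 46.5 against 11.2 to 24.7. It also had the lowest median depth, 880 UMIs per barcode against 1009 to 1458.

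The 7 genes other than Slc1a3 were rare and nearly always single molecules. Together they gave 577 UMIs, which is 17.1 CPM, in 466 barcodes (1.64% of all). Of these barcodes, 455 held only 1 of the 7 genes, and Mbp alone supplied 408 of the UMIs. Slc1a3 was a different case, with 6647 UMIs in 5596 barcodes (19.7%).

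A handful of barcodes carried many of the rare molecules. There were 5 with 5 or more UMIs of the 7 genes, and they held 93 of the 577 UMIs, while no other barcode held more than 4. The first, in ENZ-NONE replicate 5, had 44 Mbp UMIs and 3 Mobp UMIs among 1319, together with 32 UMIs from 8 of 10 microglial markers. The second, in DNC-NONE replicate 2, had 13 Slc1a2 and 10 Aldoc UMIs among 1391, none of any microglial marker, and 35.5% mitochondrial UMIs. In DNC-INHIB replicate 4, a barcode of 1777 UMIs had 4 of Mbp, with UMIs from 10 genes of the oligodendrocyte list. The other two were shallow, with 602 UMIs in ENZ-INHIB replicate 3 (4 of Clu) and 528 UMIs in DNC-NONE replicate 2 (2 of Mbp, 3 of Mobp and 55.3% mitochondrial). Only the Mbp-rich barcode of ENZ-NONE and the barcode of DNC-INHIB replicate 4 passed the cell filter (no fewer than 500 genes or 1000 UMIs, mitochondrial share not above 10%), which 18830 barcodes passed. For the results that these barcodes move most, values without them are given too.

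Mbp was found in every library. The DNC-NONE replicates 1, 2 and 3 held 26, 42 and 20 UMIs, and the DNC-INHIB replicates 4, 5 and 6 held 38, 43 and 44. There were 21, 70 and 29 in ENZ-NONE replicates 4, 5 and 6, and 25, 18 and 32 in ENZ-INHIB replicates 1, 2 and 3. The 70 UMIs of ENZ-NONE replicate 5 stood highest and include the 44 of the single barcode. The DNC-INHIB libraries, at 12.0 to 13.6 CPM, lay above those of ENZ-INHIB (6.32 to 11.4 CPM) and above the other two of ENZ-NONE (7.83 and 9.81 CPM), while the DNC-NONE libraries (7.06 to 18.6 CPM) overlapped with all of them. The mean Mbp level of the 3 DNC-NONE libraries was 11.4 ± 6.28 CPM (SD, n = 3), that of DNC-INHIB 12.97 ± 0.820, that of ENZ-NONE 16.9 ± 14.0 and that of ENZ-INHIB 9.24 ± 2.63. Without the glia-rich barcodes the ENZ-NONE mean was 9.97 ± 2.23 CPM (SD, n = 3), no longer the highest of the 4, and without ENZ-NONE replicate 5 it was 8.82 CPM. Leaving out the same barcodes gave means of 11.1 CPM for DNC-NONE, 12.5 for DNC-INHIB and 9.25 for ENZ-INHIB. Of the 350 barcodes with Mbp, 339 (96.9%) held 1 UMI. Positive barcodes made up 1.09% ± 0.395 (SD, n = 3) of the barcodes in DNC-NONE, 1.13% ± 0.237 in ENZ-NONE, 1.19% ± 0.388 in ENZ-INHIB and 1.51% ± 0.0801 in DNC-INHIB, and 0.730% to 1.63% over the 12 libraries. Neighbours in this ascending order differed by less than the larger of their SDs.

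Mobp, which encodes a small basic protein of myelin, gave 31 UMIs in 25 barcodes. In replicate order, the DNC-NONE libraries held 1, 5 and 3 UMIs, those of DNC-INHIB 5, 2 and 4, those of ENZ-NONE 2, 5 and 2 and those of ENZ-INHIB 2, 0 and 0. The first 3 groups overlapped and ENZ-INHIB was at the foot of their range, where 0 UMIs still allow up to 1.05 and 1.07 CPM in the libraries concerned, counting error only. Mal, a membrane proteolipid of myelin, was rarer still, with 9 UMIs in 9 barcodes and 0 in 7 of the 12 libraries. The DNC-NONE libraries held 1, 1 and 0 of them, those of DNC-INHIB 2, 3 and 0, those of ENZ-NONE 0 each and those of ENZ-INHIB 0, 0 and 2. At such numbers no difference between preparations was detectable.

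Among the astrocyte genes, Slc1a2 gave 25 UMIs in 13 barcodes, and 13 of these UMIs (52.0%) were in the single astrocyte-rich barcode of DNC-NONE replicate 2. The DNC-NONE libraries held 1, 14 and 2 UMIs, those of DNC-INHIB 0, 2 and 1, those of ENZ-NONE 2, 1 and 0 and those of ENZ-INHIB 0, 1 and 1. Apart from the 14, every library lay between 0 and 2. Aldoc was highest in the same library, with 2, 16 and 9 UMIs for DNC-NONE, 7, 7 and 9 for DNC-INHIB, 3, 3 and 4 for ENZ-NONE and 2, 0 and 6 for ENZ-INHIB. Its 68 UMIs split into 50 in DNC and 18 in ENZ libraries, but DNC-NONE replicate 1, with 2, lay among the ENZ libraries. The mean Aldoc level stood in the order DNC-NONE (3.64 ± 3.24 CPM, SD, n = 3), DNC-INHIB (2.38 ± 0.186), ENZ-NONE (1.30 ± 0.157), ENZ-INHIB (0.980 ± 1.08), and the first and last pair of neighbours lay within the larger of their SDs while the middle pair did not. Without the glia-rich barcodes the first 2 changed places, with DNC-NONE at 2.16 ± 1.33 CPM (SD, n = 3) and DNC-INHIB at 2.38 ± 0.187, and ENZ-NONE (0.981 ± 0.456) and ENZ-INHIB (0.861 ± 0.893) stayed below. The DNC-NONE mean was 1.92 CPM without its replicate 2, and that of ENZ-INHIB 1.47 without replicate 2 and 0.400 without replicate 3.

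Clu gave 27 UMIs in 24 barcodes, which were 1, 5 and 2 for DNC-NONE, 3, 3 and 1 for DNC-INHIB, 2, 2 and 3 for ENZ-NONE and 1, 0 and 4 for ENZ-INHIB. All 4 of the last library came from 1 barcode. Gja1 gave 9 UMIs in 8 barcodes and was at 0 in 5 libraries. No library held more than 3 of its UMIs, and that library was ENZ-NONE replicate 6. For both genes the ranges of the preparations overlapped.

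Slc1a3 was present at a steady level in all 12 libraries. It gave 767, 440 and 465 UMIs in DNC-NONE replicates 1, 2 and 3, and 631, 742 and 736 in DNC-INHIB replicates 4, 5 and 6. The ENZ-NONE replicates 4, 5 and 6 held 509, 381 and 430, and the ENZ-INHIB replicates 1, 2 and 3 held 570, 461 and 515. In CPM the highest library exceeded the lowest 1.73-fold, while for Mbp that ratio was 5.23. DNC-INHIB had the highest mean Slc1a3 level (219 ± 15.1 CPM, SD, n = 3), followed by DNC-NONE (203 ± 44.3), ENZ-INHIB (191 ± 33.6) and ENZ-NONE (172 ± 23.3), and neighbours in that order differed by less than the larger of their SDs. Positive barcodes made up 22.1% ± 1.05 (SD, n = 3) of DNC-INHIB, 20.5% ± 1.64 of ENZ-INHIB, 18.3% ± 5.33 of DNC-NONE and 17.7% ± 1.15 of ENZ-NONE barcodes. Of the positive ones, 4696 of 5596 (83.9%) held 1 UMI, 121 held 3 or more, and the most in a barcode was 7.

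**Figure D1:**
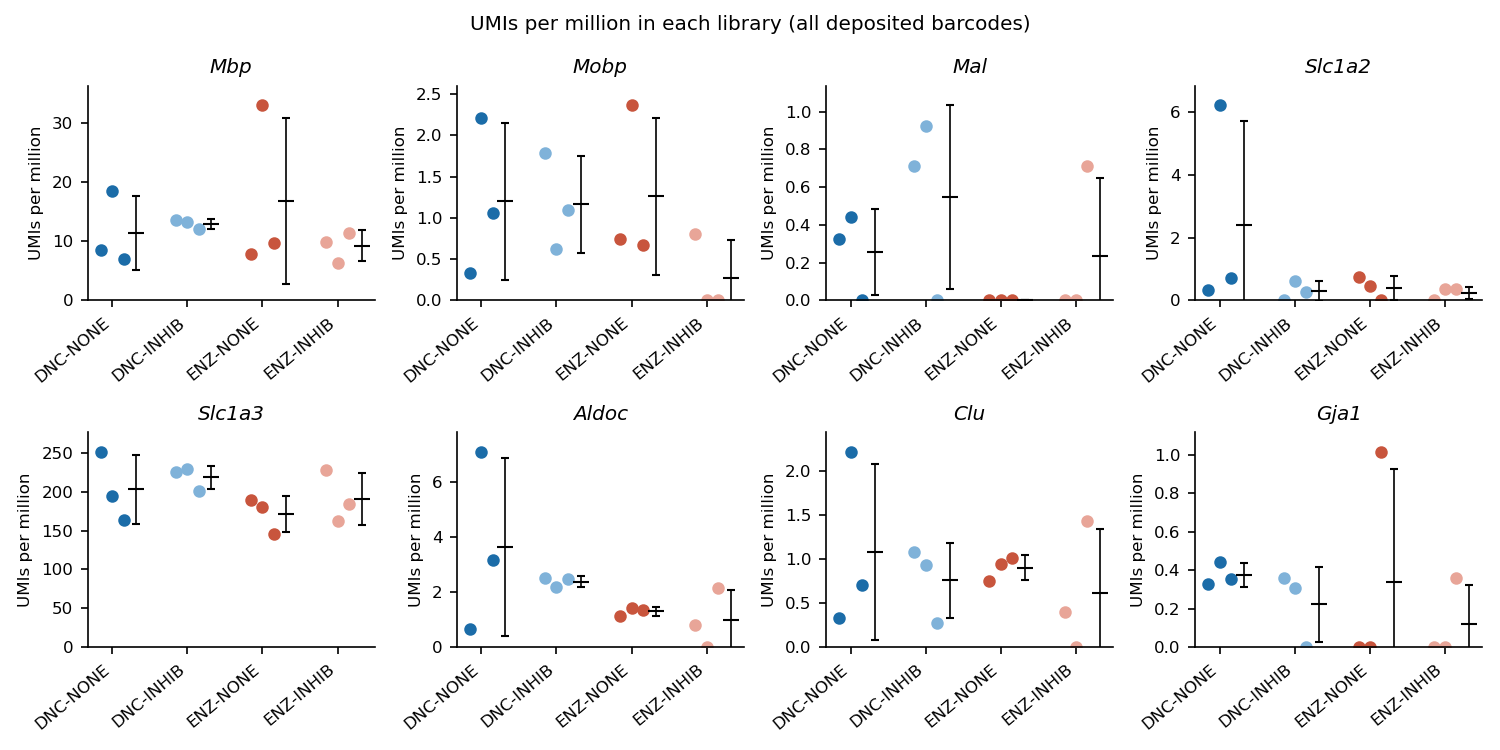
CPM of each gene in the 12 libraries, all deposited barcodes; each dot is 1 library, and the black mark and bar beside each group are its mean and SD (n = 3), with bars cut off at 0. Axes differ between genes. Slc1a3 lies between 145 and 251 CPM in every library, whereas the Slc1a2 and Aldoc panels are set by 1 library of DNC-NONE and the Mbp panel by 1 library of ENZ-NONE.

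The first comparison asked whether digestion and homogenization left different amounts of these transcripts in the sorted cells. UMIs of the 18830 kept barcodes were summed per library and tested with edgeR's quasi-likelihood test across 9884 genes, a gene being called at an adjusted p under 0.05 (Benjamini-Hochberg over all genes tested) and a log2 fold change beyond 0.58. Only Mbp and Slc1a3 passed the filter on low counts. Neither was called in ENZ vs DNC, where 0.9% of all genes tested were (0.243% higher, 0.658% lower in ENZ). Slc1a3 had a log2 fold change of -0.20 (SE 0.104, 95% interval -0.42 to 0.02, edgeR adjusted p = 0.450), and Mbp 0.04 (SE 0.337, -0.67 to 0.75, adjusted p = 0.985). The interval of Slc1a3 lies within 0.58 of 0 on both sides, and that of Mbp reaches past it. Without the glia-rich barcodes, a setting added after the data were seen, the Mbp value turned from 0.04 to -0.39 (edgeR adjusted p = 0.439), and without the whole library ENZ-NONE replicate 5 to -0.44.

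Inhibitors left both genes uncalled as well. In INHIB vs NONE, with 0.223% of genes called, Slc1a3 had a log2 fold change of 0.15 (SE 0.104, edgeR adjusted p = 0.855) and Mbp -0.26 (SE 0.335, adjusted p = 0.942). The Mbp value became 0.16 without the glia-rich barcodes and 0.22 without ENZ-NONE replicate 5. Inhibitor status was not balanced over the batches that the labels name, as batch 1 held more NONE and batch 2 more INHIB libraries. With batch as a covariate, Slc1a3 stood at 0.25 (edgeR adjusted p = 0.374) and Mbp at -0.09 (adjusted p = 0.976). In ENZ vs DNC that setting gave -0.20 for Slc1a3 (edgeR adjusted p = 0.231).

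Within each inhibitor status the same pair of genes was tested again. In ENZ-NONE vs DNC-NONE (0.617% of genes called; 0.425% higher, 0.192% lower) Mbp stood at 0.69 (SE 0.480, edgeR adjusted p = 0.769) and Slc1a3 at -0.17 (SE 0.149, adjusted p = 0.840). In ENZ-INHIB vs DNC-INHIB (0.152% called; 0.0101% higher, 0.142% lower) they stood at -0.61 (SE 0.458, adjusted p = 0.768) and -0.22 (SE 0.145, adjusted p = 0.727). The difference between these 2 method effects, the interaction (0.172% called), was -1.30 for Mbp (SE 0.663, edgeR unadjusted p = 0.0655, adjusted p = 1.00) and -0.05 for Slc1a3 (SE 0.208, adjusted p = 1.00). Dropping the glia-rich barcodes moved Mbp from 0.69 to -0.22 in the first of these and from -1.30 to -0.33 in the interaction. Slc1a3 kept its value to the second decimal in all 5 contrasts. Its value in ENZ-NONE vs DNC-NONE turned to 0.05 without DNC-NONE replicate 1.

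**Figure D2:**
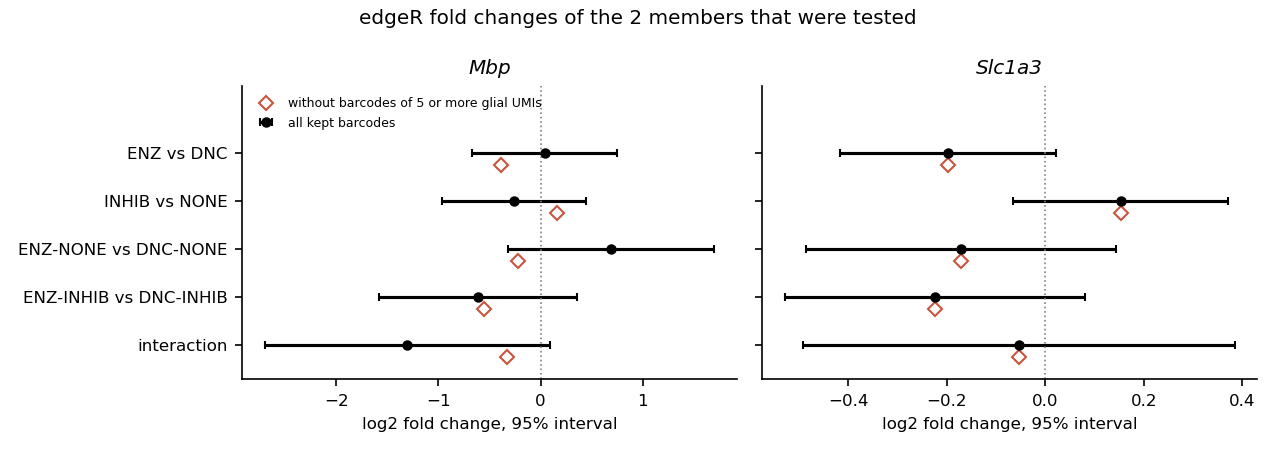
log2 fold changes of Mbp and Slc1a3 in the 5 edgeR contrasts (12 libraries); black points with bars are the estimates with 95% intervals over the kept barcodes, and open diamonds the estimates without the barcodes of 5 or more glial UMIs. Every bar crosses 0, and the diamonds leave the black points for Mbp but not for Slc1a3.

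With no filter on low counts all 8 genes were tested, and none was called in any contrast. The lowest adjusted p was that of Mbp in the interaction (edgeR, 0.0858), again with the 44 UMIs of the single barcode in it.

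Shares of positive cells were then compared at equal depth. Each kept barcode was thinned to 1000 UMIs, as the expected share without random draws, and per-library shares were compared by exact permutation within inhibitor status or within method (400 assignments, smallest possible p 0.005, two-sided, 8 genes in each comparison, p not adjusted). Mbp was found in 0.876% ± 0.190 (SD, n = 6) of ENZ and 1.22% ± 0.374 (SD, n = 6) of DNC cells, a difference of -0.340 points (exact permutation p = 0.0950). The ENZ libraries ran from 0.626% to 1.12% and the DNC libraries from 0.811% to 1.80%, so the ranges overlapped. Within batch 1 and batch 2, the sets of libraries that the labels name, the difference was -0.415 and -0.265 points. Slc1a3 was found in 16.0% ± 2.18 (SD, n = 6) of ENZ and 18.4% ± 2.72 (SD, n = 6) of DNC cells, a difference of -2.38 points (exact permutation p = 0.125). It was -1.68 points in batch 1 and -3.09 in batch 2, and the exact p was 0.0417 with labels permuted inside batches. With inhibitors the Slc1a3 share differed by 1.77 points (exact permutation p = 0.225) and the Mbp share by 0.0311 (p = 0.885, exact permutation). Without thinning the kept cells of ENZ and DNC differed by -1.17 points for Slc1a3 and -0.351 for Mbp.

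Of the 6 rarer genes, Clu differed between methods at this depth, with 0.0287% ± 0.0335 (SD, n = 6) of ENZ and 0.0811% ± 0.0380 (SD, n = 6) of DNC cells (difference -0.0525 points, exact permutation p = 0.0200). This rests on 14 Clu UMIs in all kept cells, with 1, 1 and 2 for DNC-NONE, 2, 3 and 1 for DNC-INHIB, 1, 1 and 2 for ENZ-NONE and 0 for all ENZ-INHIB libraries. Over the deposited barcodes of 500 or more UMIs, thinned to 500, the difference was -0.00116 points (p = 0.980, exact permutation), and over all deposited barcodes, unthinned, it was -0.0258 (p = 0.430, exact permutation). Within batch 1 it was -0.0387 points and in batch 2 -0.0662. Slc1a2 differed with inhibitors, 0.0134% ± 0.0155 (SD, n = 6) of INHIB and 0.0613% ± 0.0362 (SD, n = 6) of NONE cells (difference -0.0478 points, exact permutation p = 0.0300), and lost this when permuted within batch (exact p = 0.0988), with -0.0788 points in batch 1 and -0.00615 in batch 2. In all kept cells it rests on 9 UMIs, at most 2 in a library, and of the 12 fits without a single library, p stayed under 0.05 in 3 (without DNC-INHIB replicate 6, ENZ-NONE replicate 6 or ENZ-INHIB replicate 2), the highest exact p being 0.0600. No other member passed 0.05 in either comparison.

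Over the deposited barcodes of 500 or more UMIs, of every cell type together, the levels of Mbp and Slc1a3 went differently with depth. The 2032 barcodes under 500 UMIs were not part of this comparison. They held Mbp at 0.154 per 10000 UMIs (11 UMIs) and Slc1a3 at 2.42 (173 UMIs), both above the depth classes that follow. The number of Mbp UMIs rose in step with the UMIs of a barcode, at 0.114 per 10000 UMIs in barcodes of 500 to under 1000 UMIs, 0.122 at 1000 to under 2000 and 0.118 at 2000 or more, so that the share of positive barcodes went from 0.835% to 1.37% and 2.80%. Within libraries, the level in shallow barcodes was 0.110 ± 0.0469 (SD, n = 12) and in deep ones 0.117 ± 0.0839 (SD, n = 12), with 7 of 12 libraries higher in shallow barcodes (difference -0.00685, exact sign-flip permutation p = 0.831). Slc1a3 stood at 2.06 per 10000 UMIs in the first of these depth classes, 2.01 in the second and 1.37 in the third. It was higher in the shallow barcodes of 11 of 12 libraries, 2.06 ± 0.392 (SD, n = 12) against 1.33 ± 0.378 (SD, n = 12), a difference of 0.729 (exact sign-flip permutation p = 0.000977). Against all barcodes of 1000 or more UMIs, the difference was 0.130 (exact p = 0.155). Among microglia-like cells alone the Slc1a3 level was 2.07 at 1000 to under 2000 UMIs and 1.68 at 2000 or more. Mbp was also lower in the deeper of these cells, at 0.119 (268 UMIs, with the 44 of the single barcode) and 0.0828 (18 UMIs). Within this cell type the genes were thus not set apart by direction, and the difference was not tested.

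**Figure D3:**
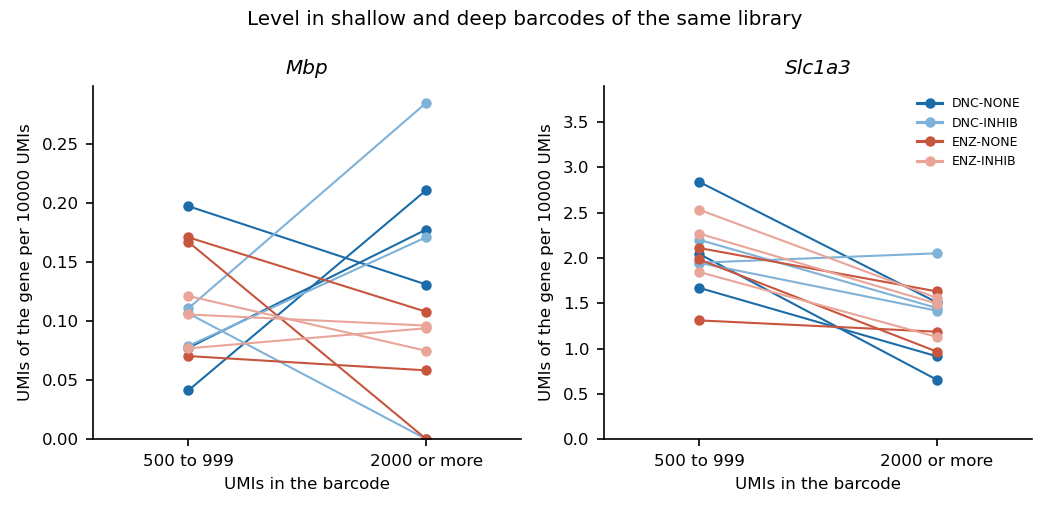
UMIs of Mbp and of Slc1a3 per 10000 UMIs in barcodes of 500 to under 1000 and of 2000 or more UMIs; each line joins the values of 1 library, coloured by preparation. The Mbp lines cross, and 11 of the 12 Slc1a3 lines fall.

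Clu was also higher in shallow barcodes (0.0297 ± 0.0597, SD, against 0.00180 ± 0.00623 per 10000 UMIs, n = 12 libraries; exact sign-flip permutation p = 0.0312). It rests on 11 Clu UMIs, 4 of them in the Clu-rich barcode of ENZ-INHIB replicate 3, without which p was 0.0625 (exact). It was also 0.0625 without DNC-NONE replicate 2, any of the 3 ENZ-NONE libraries, ENZ-INHIB replicate 1 or ENZ-INHIB replicate 3. For the other 5 genes the difference did not pass 0.05.

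Sorted cell types held Slc1a3 unequally. It was common in microglia-like cells, rare in border macrophage-like cells and not detected in dendritic-like cells, while Mbp was found in all of these. The kept cells were clustered without the 8 genes and without the marker lists of glia, neurons, vessels, choroid plexus and ependyma, and red blood cells. Clusters were named from marker lists. Of the 18830 cells, 17563 were microglia-like (median 1329 UMIs), 310 border macrophage-like (median 1556 UMIs; led by Lyve1, Pf4 and Cd163), 319 interferon-responsive-like, 61 dendritic-like and 31 proliferating-like. A cluster of 410 led by Spp1, Lpl and Itgax was left unnamed. So was a cluster of 135 led by Chil3, Cd177, Camp, Ngp and S100a8. Of its leading genes, only Chil3 was on the monocyte list used for naming, while S100a8 and S100a9 were on the neutrophil list and Nkg7 on the lymphocyte list. Slc1a3 was found in 23.7% of microglia-like cells (95% exact Clopper-Pearson interval 23.1 to 24.3) and 21.3% of interferon-responsive-like cells (17.0 to 26.2). It was found in 3.55% of border macrophage-like cells (1.78 to 6.26), in 2 cells (1.48%) of the cluster led by Chil3 and in 0 of 61 dendritic-like cells, which allows a share of up to 4.92% by the limit of 3 counts and 5.87% by the exact interval. Within the microglia-like clusters it ran from 18.3% in the smallest, led by Egr1, Fosb and Fos and 67.9% from ENZ-NONE replicate 6, to 25.7% in the largest. Border macrophage-like cells, the Chil3 cluster (median 1855 UMIs) and dendritic-like cells (median 2584) are deeper than microglia-like cells, and after thinning to 1000 UMIs the shares were 18.1% in microglia-like and 1.63% in border macrophage-like cells.

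The Slc1a3 difference was seen in every library. Microglia-like cells held 2.03 ± 0.368 (SD, n = 12) Slc1a3 UMIs per 10000 and border macrophage-like cells of the same libraries 0.254 ± 0.443 (SD, n = 12). All 12 libraries were lower in macrophages, by 1.78 on average (exact sign-flip permutation p = 0.000488, the smallest that 12 libraries allow). At the microglial level 106 Slc1a3 UMIs would have been met in the macrophages, and 14 were. These 14 lay in 11 cells, and in 5 of the 6 DNC libraries and 0 of the 6 ENZ libraries (178 and 132 macrophage-like cells). The 11 cells were deep, 1745 to 4036 UMIs, and carried more of the 10 microglial markers, 200 UMIs per 10000 against 68.7 in the 299 macrophage-like cells without Slc1a3 and 410 in microglia-like cells. P2ry12 stood at 26.6, 5.94 and 78.7 per 10000 in these 3 sets of cells, and Mrc1, the mannose receptor of border macrophages, at 7.51, 8.14 and 0.0588.

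**Figure D4:**
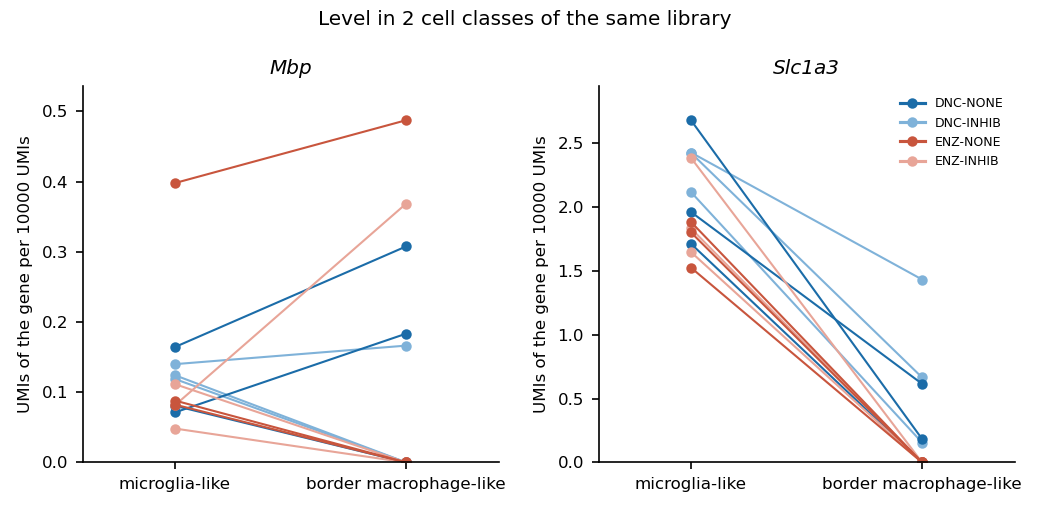
UMIs of Mbp and of Slc1a3 per 10000 UMIs in microglia-like and border macrophage-like cells; each line joins the values of 1 library, coloured by preparation. All 12 Slc1a3 lines fall, 7 of them to 0, while 5 Mbp lines rise and 7 fall.

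Mbp did not follow that pattern. It was found in 1.36% of microglia-like cells (95% exact interval 1.19 to 1.54) and 1.94% of border macrophage-like cells (0.714 to 4.17). Per 10000 UMIs the libraries held 0.126 ± 0.0916 (SD, n = 12) in the first and 0.126 ± 0.176 (SD, n = 12) in the second, a difference of 0.000392 (exact sign-flip permutation p = 0.989). Without the glia-rich barcodes the microglia-like level was 0.100 ± 0.0324 (SD, n = 12) and the difference 0.0260 (exact p = 0.619). The 6 UMIs met in macrophages compare with 6.03 at the microglial level. The 5 microglia-like clusters lay between 1.20% and 1.52%. The cluster led by Chil3 was apart from all of them. There Mbp was found in 15 of 135 cells, which is 11.1% (95% exact interval 6.35 to 17.7) and 6.21% after thinning, against 0.982% in microglia-like cells. Its 18 UMIs compare with 3.03 at the microglial level, and 14 remained without the glia-rich barcode of DNC-INHIB replicate 4, which fell in this cluster. The positive cells came from 10 of the 12 libraries, 10 cells from DNC and 5 from ENZ libraries. Dendritic-like cells held Mbp in 4 of 61 (6.56%, interval 1.82 to 16.0, 1.96% after thinning). Both groups were singled out after their values were seen, and no test was made.

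**Figure D5:**
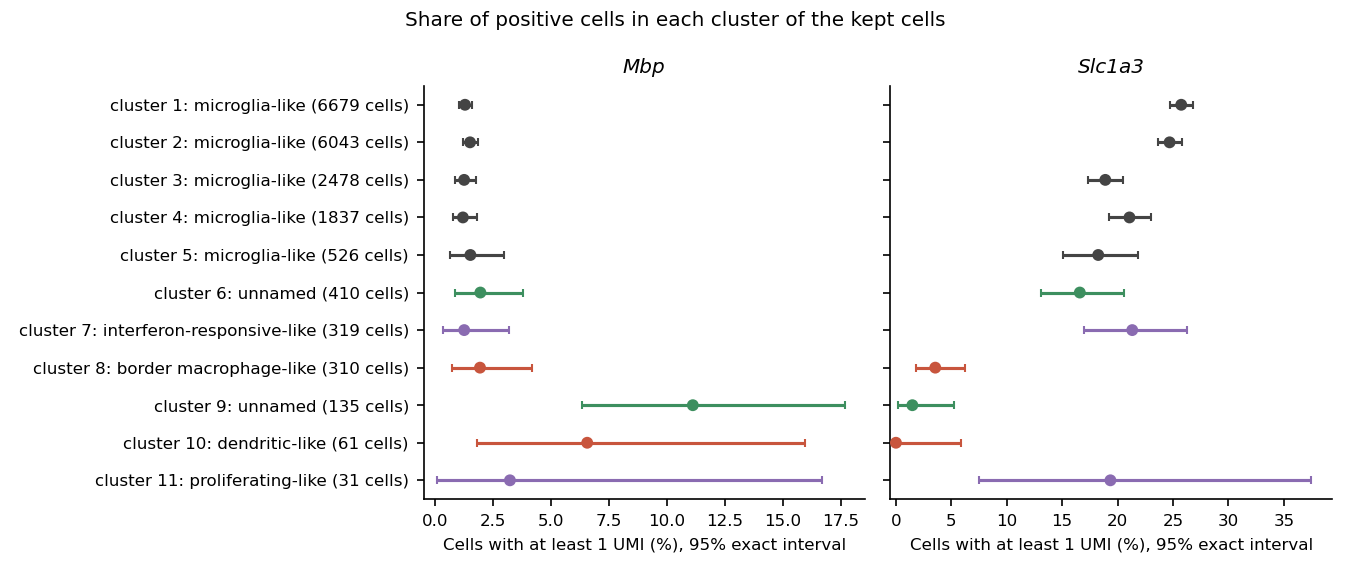
Share of cells with at least 1 UMI of Mbp or Slc1a3 in the 11 clusters of more than 20 kept cells, with 95% exact intervals that cover counting error only; colours mark microglia-like (grey), border macrophage- and dendritic-like (red), unnamed (green) and other (purple) clusters. Clusters 8, 9 and 10 are lowest for Slc1a3, and cluster 9, led by Chil3, is highest for Mbp at 11.1%.

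The rarer genes could hardly be read by cell type. Mobp and Clu had 0 UMIs in the 310 macrophages, and though their paired tests passed 0.05 (exact sign-flip permutation p = 0.00781 and 0.00391), only 0.316 and 0.253 UMIs would have been met at the microglial level, so the difference was not detectable at this depth. Aldoc gave 5 UMIs in macrophage-like cells and 5 in the 61 dendritic-like cells, where 0.464 and 0.146 would have been met at the microglial level. In macrophages these came from 3 libraries, and the paired test gave an exact permutation p of 0.250. Slc1a2 gave 3 UMIs in macrophage-like cells of 3 libraries, against 0.127 at that level.

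Barcodes with Mbp or with the rarer astrocyte genes held Slc1a3 about as often as the others, and barcodes with Mbp held a second myelin gene more often than the others. Slc1a3 was found in 20.9% of the 350 barcodes with Mbp (exact interval 16.7 to 25.5) and in 19.7% of those without. It was found in 22.6% of the 93 barcodes with Slc1a2, Aldoc, Clu or Gja1 (14.6 to 32.4), against 19.7% of the others. Mobp or Mal accompanied Mbp in 6 barcodes (1.71%, interval 0.632 to 3.69) and occurred in 0.0997% of barcodes without Mbp. Without the glia-rich barcodes, 4 remained (1.15%, interval 0.315 to 2.93), against 0.0997% of barcodes without Mbp. The barcodes with Mbp were also deeper, with a median of 1314 UMIs against 1158. All these shares pool the barcodes of all libraries, so the intervals cover counting error only, and no test over libraries was made. Mbp itself was found in 4 of the 93 barcodes with Slc1a2, Aldoc, Clu or Gja1 (4.30%, interval 1.18 to 10.7) and in 1.22% of the others, glia-rich barcodes included.

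Other genes of myelin and astrocytes were read from a pair of lists of 22 genes. Of the myelin list, 15 genes had under 50 UMIs in all 12 libraries together, and of the astrocyte list 19. The 4 myelin-list genes with the most UMIs were Trf (transferrin, in 77.2% of barcodes), Cnp (the myelin phosphodiesterase, 9.03%), Mag (myelin-associated glycoprotein, 4.31%) and Qdpr (dihydropteridine reductase, 4.23%), and the highest library exceeded the lowest by 1.23-, 1.48-, 1.24- and 1.39-fold in CPM. The 4 of the astrocyte list were Plpp3 (a lipid phosphatase, 0.690%), Ndrg2 (0.401%), Cpe (carboxypeptidase E, 0.215%) and Ttyh1 (0.172%). Gfap, the astrocyte filament protein, had 6 UMIs and Aqp4, the astrocyte water channel, 2, both named after their values were seen.

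The edgeR test could be made for 6 genes of the myelin list and 2 of the astrocyte list. The median log2 fold change in ENZ vs DNC was 0.10 over the 2 astrocyte-list genes, neither of which was called, and 0.01 over all genes. Of the myelin list, Ptgds, a prostaglandin synthase of oligodendrocytes and meninges, was lower in ENZ (log2 fold change -2.12, SE 0.415, edgeR adjusted p = 0.0133), where 0.658% of all genes were; it is named after its values were seen. The DNC-NONE libraries held 9, 15 and 3 Ptgds UMIs, those of DNC-INHIB 16, 16 and 18, those of ENZ-NONE 2, 3 and 5 and those of ENZ-INHIB 2, 1 and 2. In CPM its DNC libraries ran from 1.06 to 6.64 and its ENZ libraries from 0.351 to 1.69, and DNC-NONE replicate 3 lay among the latter. The call was lost without ENZ-INHIB replicate 2 or 3 (highest edgeR adjusted p 0.0610). Trf, Cnp, Mag and Qdpr were not called (log2 fold changes -0.07, 0.02, 0.12 and 0.30). Qdpr had an edgeR adjusted p of 0.185. In ENZ-INHIB vs DNC-INHIB Ptgds was called again (log2 fold change -3.10, edgeR adjusted p = 0.0425; lost without any of 9 libraries taken singly, over all deposited barcodes, without the glia-rich barcodes, and with DESeq2, where the adjusted p was 0.129).

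The genes whose log2 level over the 12 libraries was most like that of Mbp, among 9882 genes, were Ppp1r7 (Spearman rho 0.888), 1110006O24Rik (0.853) and Tlcd2 (0.839). For Slc1a2 they were Dnm1l (0.890), Sema6d (0.879) and Acp2 (0.868). Both patterns are set by few UMIs, and the libraries share their depth and preparation across genes.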

How the data were processed

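UMI counts per gene and barcode were deposited by the authors as 1 matrix per mouse, made with Cell Ranger 3.0.0 against mm10 (from the study's methods and the submitters' processing notes), without normalization and before the study's cell filters. Counting error alone is covered by the 95% Clopper-Pearson intervals and by the limit of 3 counts for a count of 0. Sums over kept barcodes (at least 500 genes and 1000 UMIs, at most 10% mitochondrial) were tested with edgeR 4.0.16 (TMM, filterByExpr, group means, no batch term); DESeq2 1.42.0 was an alternative. The test script was checked on simulated data. Clusters came from scanpy 1.11.5 and leidenalg 0.10.2 (2000 variable genes, 30 components, 20 neighbours, resolution 1); no doublet caller was run. A rule of 3 genes and 5 UMIs of one list of non-myeloid markers marked 225 barcodes, 216 of them with Trf, and was used only as an alternative. Genes and lists were chosen with earlier results of these data known. The genes named are the 8, the 4 of each list with most UMIs and the 3 most like Mbp and Slc1a2. Every mouse is 1 library, so n counts mice; shares, depth and cell types were compared over libraries by exact two-sided permutation tests, and each fit was repeated under other scalings, filters and barcode sets, with batch or the replicate number as a term, and without each library. Results for some genes are not reported here. No sequence is shown.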

Additional observations from a re-analysis of the deposited data

How the results depend on the processing

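No member was called in any edgeR contrast under any setting in which it was tested. Mbp and Slc1a3 were tested in every setting, the rarer members only without the low-count filter. Over 53 results, 651 of 793 alternative values kept direction and side of the threshold or, without a test, stayed within 1 SD (means) or 1.5 times (counts). Without the low-count filter the genes called numbered 236 (main 89) in ENZ vs DNC, 130 (22) in INHIB vs NONE, 203 (61) in ENZ-NONE vs DNC-NONE, 98 (15) in ENZ-INHIB vs DNC-INHIB and 73 (17) in the interaction. ENZ-INHIB vs DNC-INHIB gave 24 with batch as a covariate and 9 with DESeq2. The replicate numbers were not treated as pairs, because the deviations of same-numbered libraries correlated between -0.088 and 0.267; with the replicate block 120 genes were called in ENZ vs DNC and 42 in INHIB vs NONE, and Mbp stood at -0.0064. Leaving out single libraries gave 47 to 120, 8 to 36, 40 to 90, 2 to 23 and 6 to 19 genes in the 5 contrasts. The Mbp log2 fold change turned without the barcodes of the other-cell rule to -0.39, 0.14 and -0.24, and without the glia-rich barcodes to -0.39, 0.16 and -0.22, in the first 3 contrasts; over left-out libraries it ran from -0.44 to 0.23, -0.44 to 0.22 and -0.27 to 1.07. Slc1a3 ran from -0.30 to 0.054 in ENZ-NONE vs DNC-NONE and -0.28 to 0.069 in the interaction, and was 0.0072 there over all deposited barcodes. Of 8 shares in ENZ minus DNC, 1 passed 0.05 in the main test, 0 unthinned, thinned to 500, over all barcodes or at 2 UMIs (Mbp 0.0203 points), and 2 within batch. In INHIB minus NONE 1 passed, and 0 under every other setting except single left-out libraries (0 to 1); Mbp ran from -0.0343 to 0.185 points, and Slc1a2 in ENZ minus DNC from -0.0234 to 0.000474. By depth 2 genes passed, 1 without the glia-rich barcodes and 0 against 1000 or more UMIs (1 to 2 over left-out libraries); Slc1a3 per barcode was -0.159, and Mbp ran from -0.0227 to 0.00836. The Mbp difference between cell types was 0.0260 without the glia-rich barcodes, -0.000449 at Leiden resolution 0.5 and -0.0257 to 0.0117 over left-out libraries. No cluster was named monocyte-like, so leaving monocytes out changed nothing. The causes were not tested. Members of under 30 UMIs are limited by depth: 1 barcode or 1 library can set their values.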
